A study of Mus musculus with 2 samples.

Results

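In dorsal skin of control mice, 445 cells held transcripts of Pdgfra, a growth factor receptor that marks fibroblasts, together with Acta2, which encodes smooth muscle actin, and with Lrrc15 or Col11a1, which encode a leucine-rich membrane protein and a chain of a minor fibrillar collagen. These cells, called gate cells here, were chosen by their UMI counts, in which a UMI stands for 1 transcript molecule. They came from the 11399 cells of the Ctrl library with 200 to 6000 detected genes and at most 10% mitochondrial UMIs. A gate cell had at least 1 UMI of Pdgfra, at least 2 of Acta2 and at least 2 of Lrrc15 and Col11a1 summed, and no UMI of Ptprc (leukocytes), Pecam1 (endothelium) or Rgs5 (pericytes). They made up 3.90% of the kept Ctrl cells (95% interval 3.56% to 4.28%) and 8.49% of the 5240 Pdgfra-positive cells without these exclusion genes. The remaining 4795 Pdgfra-positive cells are called other fibroblasts.

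The series held 2 single-cell libraries of dorsal skin from female C57BL/6J mice aged 7 weeks, depilated with Nair on the day before treatment began. Ctrl skin was treated with ethanol and MC903 skin with 4.5 nmol per application of MC903 (calcipotriol, a vitamin D analogue that induces dermatitis), daily on a patch of 2 cm by 2 cm, and skin was taken on day 10. Each condition had 1 library, and the number of mice behind it is not given in the sources used here. No test between conditions or between classes of cells could therefore be made, and the intervals, all at 95%, take in counting error alone (exact Poisson for levels, Clopper-Pearson for shares, conditional binomial for ratios). The kept cells held 105195951 UMIs in Ctrl (median 7813 per cell) and 61645227 UMIs in the 8179 kept cells of MC903 (median 6330 per cell). Of 29 barcodes found among the kept cells of both libraries, 2 belonged to gate cells, and neither was a gate cell in MC903.

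Smooth muscle actin assembles with myosin into contractile fibres. In skin it is known from the mural cells of vessels, from the arrector pili muscle that raises the hair, from wound myofibroblasts and from the dermal sheath, the connective tissue that wraps the hair follicle. The follicle mesenchyme also holds the dermal papilla, a cluster of fibroblasts at the base of the follicle that signals to the epithelium through Wnt, BMP and FGF ligands. Lists of genes known from each of these cells and pathways were used to describe the gate cells, without giving the cells such a name.

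The values that selected the cells spread widely within the gate. Acta2 ranged from 2 to 276 UMIs per cell with a median of 13, and the sum of Lrrc15 and Col11a1 ranged from 2 to 229 with a median of 42. Lrrc15 was at 0 in 6 gate cells and Col11a1 in 26, so nearly every cell held both. Pdgfra had a median of 5 UMIs and a highest value of 23, and its level in CPM, that is, relative to the total of UMIs in the pooled cells, was 369 CPM in gate cells and 505 CPM in other fibroblasts. The gate cells were the deeper class, with a median of 14091 UMIs and 4127 genes per cell against 8752 UMIs and 3030 genes. A UMI threshold is passed more easily in a deep cell, and after each cell was thinned to 3000 UMIs the same gate held 189 of 9585 Ctrl cells.

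**Figure D1:**
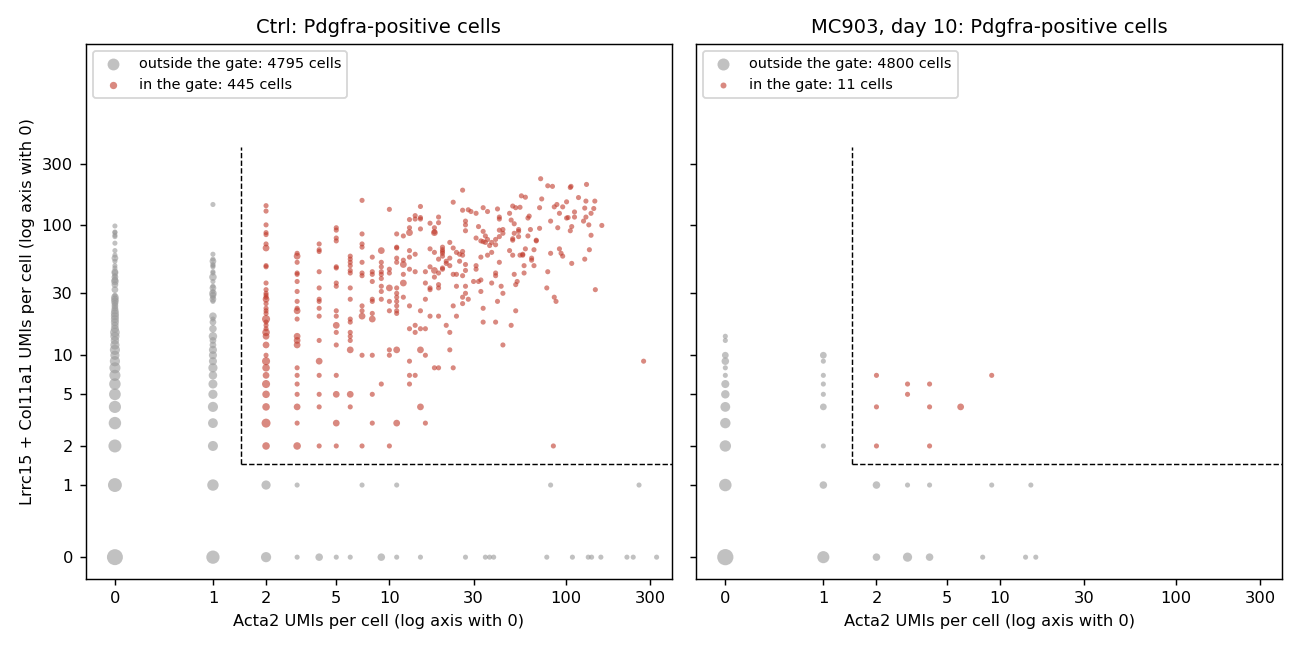
UMIs of Acta2 (x axis) against UMIs of Lrrc15 and Col11a1 summed (y axis), both on log axes with 0, for the Pdgfra-positive cells of each library. A dot is 1 combination of values and grows with the number of cells, and dashed lines mark the gate, with 445 cells in Ctrl and 11 in MC903.

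The 4 genes that carry the gate lie on different chromosomes of the mouse genome (GRCm38, GENCODE positions). Acta2 lies at chr19:34241090-34255590 on the minus strand, Lrrc15 at chr16:30269302-30283256 on the minus strand, Col11a1 at chr3:114030540-114220718 on the plus strand and Pdgfra at chr5:75152292-75198215 on the plus strand. The markers Tagln at chr9:45929619-45936058 and Ednrb at chr14:103814625-103844402, both on the minus strand, did not enter the selection. All of them are annotated as protein-coding genes.

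Both markers outside the rule were far higher in the gate cells than in other fibroblasts. Ednrb, the endothelin receptor type B, was at 674 CPM (654 to 694) in gate cells and 11.2 CPM (10.3 to 12.3) in other fibroblasts, a log2 ratio of 5.78 (5.66 to 5.91) with 1 CPM added to both. It had the highest log2 ratio of the 4035 genes compared. Tagln, an actin-binding protein of contractile cells, was at 923 CPM and 45.6 CPM, a log2 ratio of 4.31 (4.24 to 4.38). A UMI of Ednrb was found in 66.7% of gate cells and 4.21% of other fibroblasts, beside 2.74% of keratinocytes (median 13197 UMIs) and 1.59% of T cells (median 3275.5 UMIs), types that give the level of free RNA. With every cell thinned to 1000 UMIs the shares for Ednrb were 35.5% in gate cells, 0.695% in other fibroblasts and 0.632% in keratinocytes, so the share in other fibroblasts was near the background and that in gate cells was not. For Tagln, 86.1% of gate cells, 9.30% of other fibroblasts and 16.4% of keratinocytes held a UMI.

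Beyond these markers, Acan, Tnnt1, Kank4, Actg2 and Stmn2 had the highest ratios in the gate cells, apart from Acta2 of the rule. Over genes with at least 50 CPM in either class, 330 of 4035 (8.18%) were at least 2-fold higher in gate cells and 507 (12.6%) at least 2-fold lower, with a median log2 ratio over all 4035 genes of 0.12 and quartiles of -0.40 and 0.51. These counts come from the same contrast as the gate and describe it. For a gene that reached 50 CPM in a single class, the filter fixes the direction, and this holds for the gene lists below too. Acan, the large proteoglycan of cartilage, was at 357 CPM against 8.29 CPM (log2 ratio 5.27), and 73.9% of gate cells held a UMI against 2.77% of other fibroblasts and 0.947% of keratinocytes. Tnnt1, the troponin T of slow skeletal muscle, was at 116 CPM against 2.23 CPM (log2 ratio 5.18). Kank4, an adaptor between adhesions and the cytoskeleton, was at 90.1 CPM against 2.19 CPM (log2 ratio 4.84). Actg2, the enteric smooth muscle actin, followed at a log2 ratio of 4.60. Stmn2, a microtubule regulator best known from neurons, was at 338 CPM against 14.5 CPM (log2 ratio 4.45). The rest of the 20 highest log2 ratios included Clic5, Fam189a2, Egfl6, Tpd52l1, Fbn2, Tenm3, Col12a1, 1190005I06Rik and 2610307P16Rik, between 3.51 and 3.85, besides the selecting genes and the markers. With 10 CPM added in place of 1, which weighs on genes that are low in other fibroblasts, the log2 ratios of Tnnt1 and Kank4 were 3.37 and 3.04.

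At the edge of the gate, levels of Ednrb and Acan were lower on both sides, and other genes differed on both sides too. The 246 gate cells with at least 10 UMIs both of Acta2 and of Lrrc15 plus Col11a1 held Ednrb at 940 CPM and Acan at 457 CPM. The 94 gate cells with 2 or 3 UMIs of Acta2 held Ednrb at 139 CPM and Acan at 167 CPM, and the 126 cells just outside, with 1 UMI of Acta2, held Ednrb at 53.8 CPM and Acan at 88.8 CPM. The levels did not follow Acta2 alone, since the 126 cells with no UMI of Acta2 and at least 10 of Lrrc15 plus Col11a1 held Ednrb at 75.4 CPM and Acan at 98.2 CPM. On the other side, the 25 gate cells with 2 or 3 UMIs of Lrrc15 plus Col11a1 held Ednrb at 27.3 CPM. The 39 cells with at least 2 UMIs of Acta2 and none of Lrrc15 or Col11a1 held Ednrb at 17.0 CPM, no UMI of Stmn2, and Myh11, the myosin heavy chain of smooth muscle, at 3506 CPM. Myh11 was found in 38.5% of these cells, so a minority carried its level, whereas Pi16, a protease inhibitor of adventitial fibroblasts, was found in 64.1%. In the 246 cells Myh11 was at 8.84 CPM, and Pi16 was found in 25.2%. Of the 13 cells with 1 UMI of Lrrc15 or Col11a1, 15.4% held Myh11 and 61.5% held Pi16. On the Acta2 side, Pi16 was found in 34.1% of the 126 cells with 1 UMI of Acta2. It was found in 38.8% of the 632 cells with no UMI of Acta2 and at least 2 of Lrrc15 plus Col11a1. Pi16 was thus found in larger shares of cells outside either threshold than in the 246 cells. The same held just inside the gate. Pi16 was found in 44% of the 25 gate cells with 2 or 3 UMIs of Lrrc15 plus Col11a1 and in 30.9% of the 94 with 2 or 3 UMIs of Acta2. Whether Myh11 and Pi16 lay in the same cells was not tested.

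**Figure D2:**
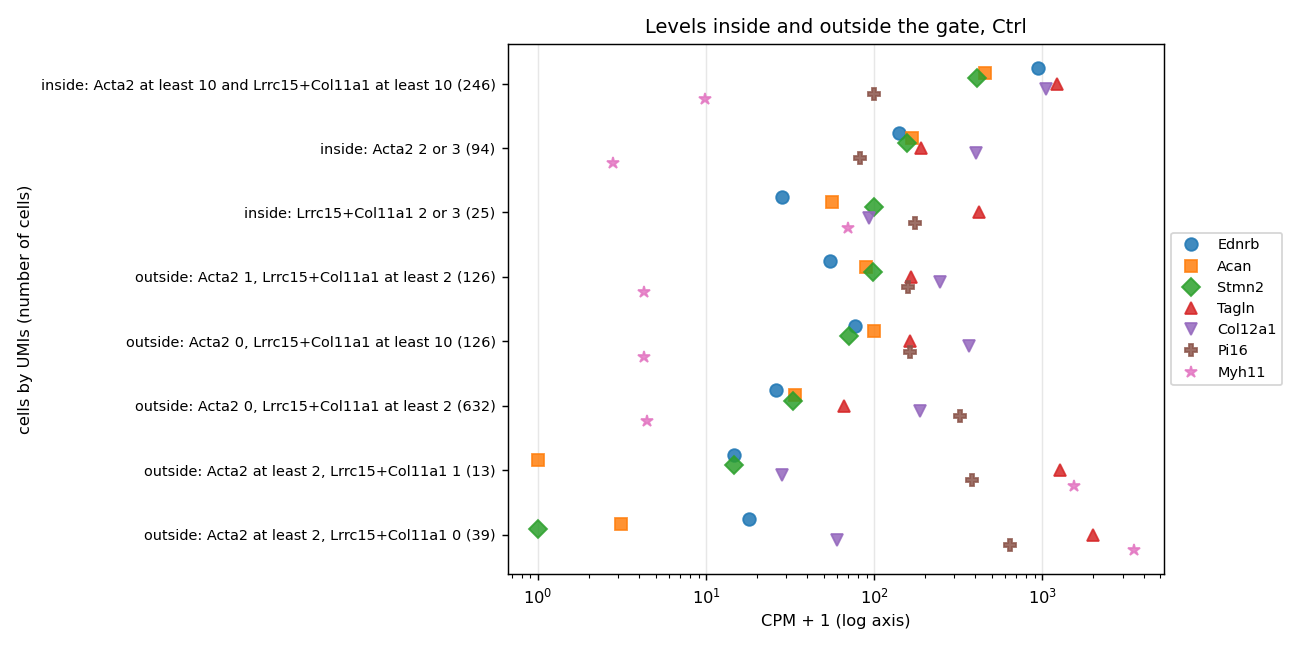
CPM plus 1 on a log axis for 7 genes (markers) in Ctrl cells grouped by their UMIs of Acta2 and of Lrrc15 plus Col11a1 (rows, with the number of cells). Ednrb falls from 940 CPM in the 246 cells deep inside to 53.8 CPM just outside the Acta2 threshold, and Myh11 is at 3506 CPM in the 39 cells with Acta2 alone, of which 38.5% hold a UMI of it.

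Contractile genes were higher in gate cells as a group. Of 28 listed genes of the contractile apparatus, 23 reached 50 CPM, with 18 at least 2-fold higher and 1 at least 2-fold lower. Among all genes 8.18% were higher and 12.6% lower. The median log2 ratio of the list was 1.32 beside 0.12 for all genes. Without Acta2 of the rule and the marker Tagln, 16 of 21 were higher and 1 lower, with a median of 1.29. Acta2, which selected the cells, was at 1789 CPM against 52.7 CPM, and Actg2 at 252 CPM against 9.40 CPM (log2 ratio 4.60). Myl9, a regulatory light chain of myosin, was at 515 CPM against 71.3 CPM (log2 ratio 2.84). The tropomyosins, which lie along the actin filament, were higher for Tpm2 (566 CPM against 84.8 CPM) and Tpm1 (1623 CPM against 265 CPM). Zyx, an adaptor of focal adhesions, was the one that was lower, at 46.3 CPM against 101 CPM (log2 ratio -1.11), and came under 2-fold with 10 CPM added (-0.98) and with all deposited barcodes (-0.94). Myh11, Lmod1 and Des, which mark mature smooth muscle, were below 50 CPM in both classes. Myh11 was at 43.1 CPM against 44.7 CPM and found in 5.84% of gate cells, Lmod1 at 7.08 CPM against 5.58 CPM, and Des at 8.89 CPM against 13.1 CPM. The actins share much of their coding sequence, so a split of reads between Acta2 and Actg2 is not certain.

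Many contractile genes carry the CArG box, the site of serum response factor: the letters CC, then 6 letters that are A or T, then GG, which reads the same on both strands. The 250 bases before the RefSeq start of Myl9 and of Acta2 are shown, since Acta2 selected the cells and Myl9 held a full box, with sequence from RefSeq on GRCm38.p6, each 5′ to 3′ on the strand of its gene. Capitals mark each CArG box and each copy that has 1 middle letter other than A or T. RefSeq and GENCODE place the starts differently. For Acta2 the GENCODE gene begins upstream of the RefSeq start, so 217 of the 250 bases, with both marked copies, lie inside the GENCODE gene. For Myl9, whose GENCODE gene begins at position 156775420, the last 44 bases of the window do, and neither marked copy is among them.

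Myl9, chr2:156775214-156775463, plus strand: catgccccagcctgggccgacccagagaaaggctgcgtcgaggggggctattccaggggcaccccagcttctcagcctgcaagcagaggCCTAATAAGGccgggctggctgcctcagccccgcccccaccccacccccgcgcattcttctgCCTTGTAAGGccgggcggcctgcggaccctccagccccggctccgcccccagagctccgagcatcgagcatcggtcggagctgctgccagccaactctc
Acta2, chr19:34255374-34255623, minus strand: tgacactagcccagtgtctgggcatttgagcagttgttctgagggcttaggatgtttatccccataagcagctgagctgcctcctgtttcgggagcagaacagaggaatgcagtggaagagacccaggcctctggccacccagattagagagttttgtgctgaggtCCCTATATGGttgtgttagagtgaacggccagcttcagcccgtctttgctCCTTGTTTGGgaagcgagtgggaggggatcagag

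Of the 28 contractile genes, 24 had a promoter in this table, and 3 of them (Myl9, Cnn2 and Vcl) held a full CArG box in these 250 bases, which is 3 of their 28 promoters (10.7%) beside 1.47% of all 32851 promoters. With 1 middle letter allowed to differ, Acta2 joined them, at 14.3% of their promoters beside 8.59% of all promoters. Cnn2, a calponin, was at 213 CPM against 39.8 CPM, and Vcl, which encodes vinculin, at 205 CPM against 61.9 CPM. Tagln and Actg2 have no entry. A match describes the letters of the window and was not tested as a binding site.

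Few listed genes of mural cells or of the arrector pili reached 50 CPM in gate cells or other fibroblasts, with Actg2 among those that did. Of 17 listed genes of pericytes and vascular smooth muscle, 4 reached 50 CPM in gate cells or other fibroblasts, with 2 higher and 1 lower. Among all genes 8.18% were higher and 12.6% lower than in other fibroblasts. Mcam (70.5 CPM against 6.34 CPM) and Cspg4 (157 CPM against 21.1 CPM), both surface proteins also known from pericytes, were the ones that were higher. They reached 50 CPM in gate cells only, and the lower gene in other fibroblasts only, which fixes their direction. The list summed to 499 CPM in gate cells, with Cspg4 as its highest gene, and to 15972 CPM in the 168 mural cells, which were selected by at least 2 UMIs of Rgs5 and of Acta2 and none of Pdgfra, Ptprc or Pecam1. Rgs5, which the gate required to be 0, accounts for 6219 CPM of the mural sum, and without it the sums were 499 and 9754 CPM. In mural cells Mcam was at 406 CPM and Cspg4 at 232 CPM. Most other genes of the list at 50 CPM in gate or mural cells reached it in mural cells only. The filter fixes their direction, so lower genes were not counted against that class. Higd1b was at 0 in gate cells, and Notch3 was at 13.4 CPM in gate cells and 869 CPM in mural cells. Of 11 listed genes of the arrector pili and visceral smooth muscle, 2 reached 50 CPM, both higher, namely Actg2 and the integrin Itga8 (72.8 CPM against 11.3 CPM). Both reached it in gate cells only, which fixes their direction. That list summed to 462 CPM in gate cells and 8485 CPM in mural cells, where Myh11 was at 5718 CPM. Most of its genes at 50 CPM in gate or mural cells reached it in mural cells only, so lower ones were not counted. Itga8 was below its mural level of 362 CPM. Actg2 went the other way, at 252 CPM in gate cells and 50.3 CPM in mural cells. The mural class was selected by Rgs5, and no class of arrector pili cells was defined, so levels in that muscle were not compared. No gene of the leukocyte, endothelial or skeletal muscle lists reached 50 CPM in either class.

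Against the mural class the gate cells differed across much of the transcriptome. Of 4351 genes at 50 CPM or more in either class, 856 (19.7%) were at least 2-fold higher in gate cells and 892 (20.5%) at least 2-fold lower. Pdgfra, Rgs5, Lrrc15 and Col11a1 were used to select the classes, which fixes their direction, with Col11a1 at a log2 ratio of 8.74. Among genes outside the selection, the tendon glycoprotein Tnmd (8.66), Stmn2 (8.41) and the axon guidance receptor Robo2 (7.86) were among the highest. None of them had a UMI in mural cells, so their ratios depend on the added 1 CPM. Fabp4, a fatty acid carrier (log2 ratio -8.32), and Sncg, a synuclein (-8.41), were among the lowest. Acta2 and Tagln were below the mural level, at 1789 CPM against 4861 CPM and 923 CPM against 4637 CPM.

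**Figure D3:**
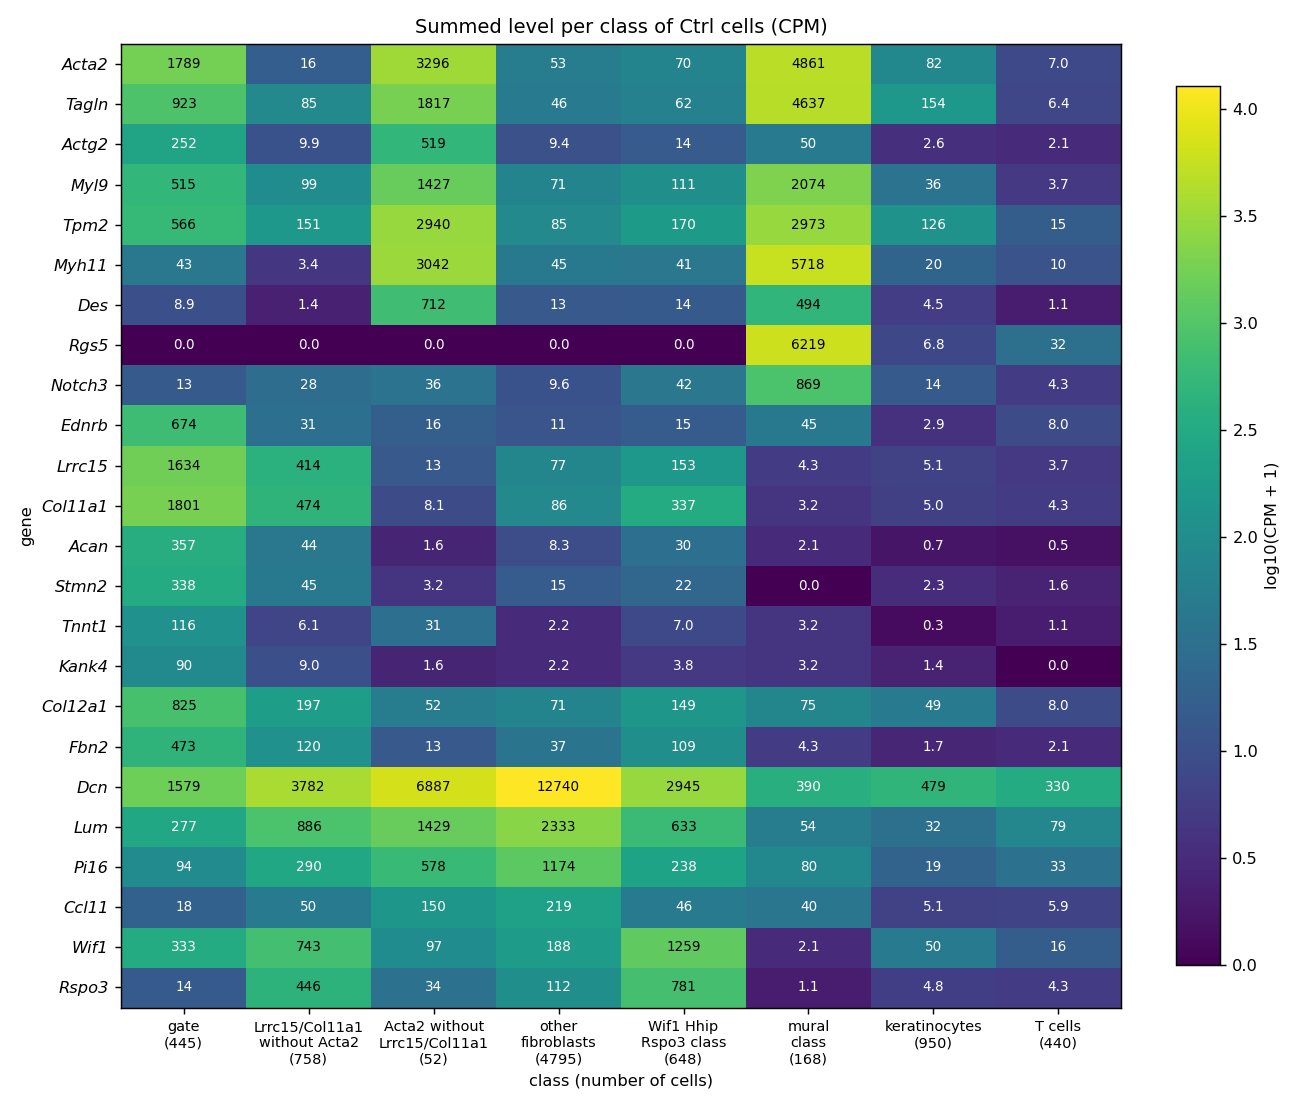
CPM of 24 genes (rows) in gate cells and 7 other classes of Ctrl cells (columns, with the number of cells), with color on a log10 scale. Acta2 and Tagln are high in gate cells, in cells with Acta2 alone and in mural cells, Myh11 is high in the last pair only among the classes drawn, and Ednrb, Acan and Stmn2 are highest in gate cells.

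Matrix genes differed in both directions, beside 8.18% higher and 12.6% lower among all 4035 genes. Of 9 other collagens at 50 CPM, 5 were at least 2-fold higher and none lower, with a median log2 ratio of 1.41. Col12a1, which coats fibrils, was at 825 CPM against 71.4 CPM, Col7a1, the anchoring fibril collagen, at 148 CPM against 25.9 CPM, and Col6a3, a chain of the microfibrillar type, at 2529 CPM against 950 CPM. Col14a1 (314 CPM against 513 CPM) and Col16a1 (229 CPM against 332 CPM), which like Col12a1 associate with fibrils, stayed within 2-fold. Of 8 fibrillar collagens, 2 were higher, Col11a1 of the rule and Col27a1 (78.4 CPM against 25.8 CPM), while Col1a1 (15890 CPM against 10279 CPM) and Col3a1 (6411 CPM against 8671 CPM) stayed within 2-fold. Fbn2, a fibrillin of elastic microfibrils, was at 473 CPM against 36.7 CPM. In contrast, Dcn, decorin, was at 1579 CPM against 12740 CPM (log2 ratio -3.01) and Lum, lumican, at 277 CPM against 2333 CPM (log2 ratio -3.07), both proteoglycans that bind collagen fibrils. In the list of 6 small leucine-rich proteoglycans at 50 CPM, 3 were lower, with Ogn besides these, and 1, Bgn, was higher, at 1864 CPM against 922 CPM, while Prelp (206 CPM against 127 CPM) and Aspn (212 CPM against 315 CPM) stayed within 2-fold. The log2 ratio of Bgn, 1.01, fell under 2-fold in 3 alternatives, to between 0.89 and 0.95.

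Matricellular and wound myofibroblast genes went both ways, with 6 of 16 higher and 6 lower, beside 8.18% and 12.6% of all genes. Tnn, tenascin W (110 CPM against 12.2 CPM), and Ccn4, a target of Wnt signaling (124 CPM against 14.6 CPM), had the highest ratios of the list. Fn1, fibronectin, was at 379 CPM against 1525 CPM, Fap, a surface protease of activated fibroblasts, at 19.4 CPM against 79.9 CPM, and Loxl1, which crosslinks elastin, at 60.7 CPM against 277 CPM. Postn, periostin, was within 2-fold at 1780 CPM against 935 CPM, and Cthrc1, a gene of wound myofibroblasts, was below 50 CPM in both classes. Of 13 basement membrane genes, 3 were higher and 2 lower, a lower share close to the 12.6% of all genes, and the highest ratio was that of Nid2, a nidogen, at 233 CPM against 37.2 CPM.

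Among signaling genes, both receptors of endothelin were higher than in other fibroblasts. Of 3 endothelin genes at 50 CPM, both receptors were higher (Ednra at 95.4 CPM against 27.4 CPM, beside Ednrb above), and the ligands Edn1 (5.42 CPM against 36.0 CPM) and Edn3 (8.29 CPM against 45.9 CPM) were below 50 CPM in both classes. Of 6 Hedgehog genes, 3 were higher and 1 lower, beside 8.18% higher and 12.6% lower among all genes, with Gli1 (79.1 CPM against 33.6 CPM) and Ptch1 (334 CPM against 157 CPM), both targets of the pathway, and Hhip, a decoy receptor, at 50.03 CPM against 132 CPM. The log2 ratio of Ptch1, 1.08, fell to 0.96 with scaling by the median of gene ratios and to 0.94 with all deposited barcodes, and that of Gli1, 1.21, to just under 2-fold with all deposited barcodes, while that of Hhip, -1.38, was -0.38 under a looser gate of at least 1 UMI of Acta2 and of Lrrc15 plus Col11a1. The 648 other fibroblasts with at least 2 of the genes Wif1, Hhip and Rspo3, held Ptch1 at 697 CPM, Gli1 at 108 CPM and Ednra at 105 CPM, above the gate cells, but Gli2, the third of the higher genes, at 48.9 CPM against 55.8 CPM in gate cells and Ednrb at 14.6 CPM. Of 22 TGF-beta and BMP genes, 1 was higher and 13 lower, with Tgfb1 at 69.8 CPM against 32.5 CPM and Tgfbi, a matrix protein induced by TGF-beta, at 32.1 CPM against 365 CPM. Tgfb1 reached 50 CPM in gate cells only, and most of the lower genes in other fibroblasts only, which fixes their direction. The log2 ratio of Tgfb1, 1.08, fell under 2-fold in 4 alternatives, to between 0.91 and 0.99. Of 12 Wnt genes, 1 was higher (the secreted Dkk3), close to the 8.18% of all genes, and 7 were lower, beside 12.6%. Most of the lower ones reached 50 CPM in other fibroblasts only, which fixes their direction. Among them was Sfrp4, a secreted Wnt binder, at 16.1 CPM against 146 CPM. The Wnt antagonist Dkk1 stayed below 50 CPM, yet 21.3% of gate cells held a UMI of it, beside 0.229% of other fibroblasts and 0.105% of keratinocytes. Of 9 IGF genes, 3 were higher and 3 lower, with the binding protein Igfbp2 at 497 CPM against 68.1 CPM and Igfbp6 at 91.6 CPM against 727 CPM.

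Chemokine and adventitial genes were mostly lower in gate cells. All 9 chemokines at 50 CPM were at least 2-fold lower, with a median log2 ratio of -2.93. Several, Ccl11 among them, reached 50 CPM in other fibroblasts only, which fixes their direction. Among all 4035 genes 12.6% were lower, the share to set beside each count of this paragraph. Ccl11, eotaxin, was at 17.8 CPM against 219 CPM (log2 ratio -3.55), Ccl2, which recruits monocytes, at 71.0 CPM against 494 CPM (-2.78) and Cxcl12, the ligand of Cxcr4, at 116 CPM against 392.1 CPM (-1.74). Under a looser gate, with at least 1 UMI of Acta2 and of Lrrc15 plus Col11a1, Cxcl12 was at -0.98. A sub-cluster of 55 gate cells, sub-cluster 0, held the chemokine list at 2133 CPM, and without it and sub-cluster 1 the log2 ratio of Ccl11 was -6.27. The sub-clusters were made from the same values, so that shift follows from the grouping. Of 9 adventitial fibroblast genes, 7 were lower and none higher (median -3.10), with Pi16, a protease inhibitor, at 94.3 CPM against 1174 CPM and Mfap5, a microfibril protein, at 222 CPM against 327 CPM. In the cytokine response list, 7 of 11 were lower and none higher, with Il6 at 27.6 CPM against 215 CPM. Most of these lower genes, Il6 among them, reached 50 CPM in other fibroblasts only, which fixes their direction. Immediate early genes, which can rise during tissue digestion, were lower for 8 of 15, with Atf3 at 154 CPM against 756 CPM. The part of digestion in the levels of Ccl2, Cxcl1 and Il6 was not tested.

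RNA of other cells moved with the contrast too. Of the 15 lowest ratios, 5 belonged to epidermal genes, Crct1 (1.81 CPM against 80.1 CPM), Flg (4.37 CPM against 132 CPM), Flg2, Lor and Asprv1. The shares of cells with a UMI differed little, at 2.70% and 3.02% for Crct1, 5.62% and 5.42% for Asprv1 and 17.5% and 13.2% for Lor, so a few other fibroblasts carried the higher CPM. The list of interfollicular keratinocytes summed to 628 CPM in gate cells and 1528 CPM in other fibroblasts. In it 6 of 9 genes were lower, beside 12.6% of all genes. None was at 0, and Krt10 was the highest gene (201 CPM against 579 CPM). Against other fibroblasts of like depth the log2 ratio of Crct1 was -2.82 in place of -4.85, that of Flg -1.83 in place of -4.63, that of Asprv1 -2.14 in place of -3.91 and that of Krt10 -0.68 in place of -1.52. All 4 erythroid genes were lower (summed 272 CPM against 713 CPM, led by Hbb-bs), and the near-identical globin copies may share reads. Hba-a2, at a log2 ratio of -1.08, came under 2-fold in 5 alternatives, at -0.74 without sub-clusters 0 and 1 of the gate cells. The part of such RNA in the other ratios was not tested. The other lowest genes were Myoc, myocilin (5.12 CPM against 137 CPM), Sod3, an extracellular superoxide dismutase (10.5 CPM against 161 CPM), Gpx3, a secreted peroxidase (82.9 CPM against 1023 CPM), Clec3b, tetranectin (71.6 CPM against 817 CPM), and Procr, Pi16, Ccl11, Slco2b1, Esr1 and Aldh1a1. Without sub-clusters 0 and 1 of the gate cells these ratios were lower still, with Clec3b at -6.53 in place of -3.49 and Gpx3 at -6.17 in place of -3.61. The sub-clusters were made from the same values, with Clec3b at 404 CPM in sub-cluster 0 and 10.9 CPM in the rest of the gate. The shift therefore follows from the grouping and is no separate result.

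**Figure D4:**
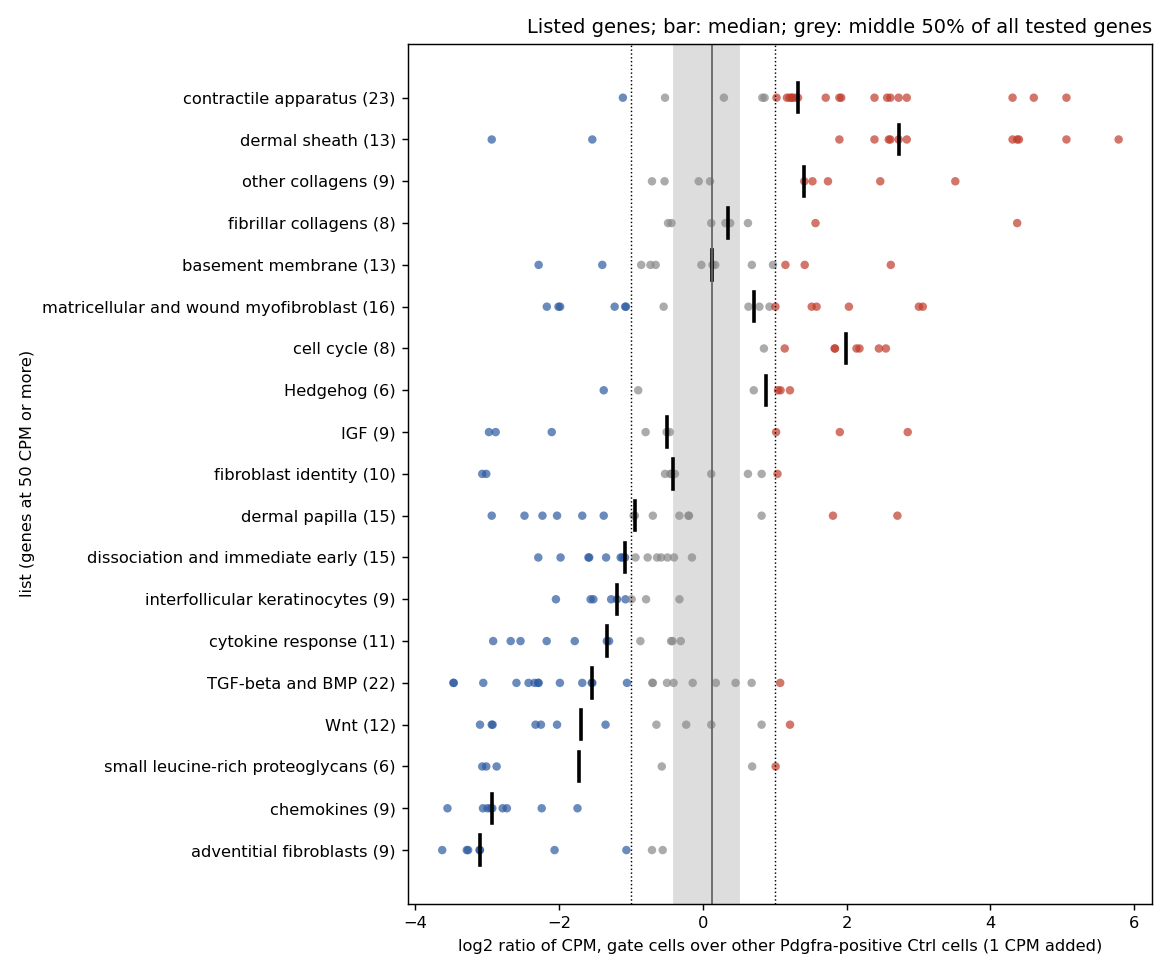
Log2 ratio of CPM in gate cells over other fibroblasts (x axis, 1 CPM added) for the genes of 19 lists at 50 CPM or more (rows, with the number of genes). Red dots are at least 2-fold higher, blue dots at least 2-fold lower, bars are medians, and the contractile (1.32) and adventitial (-3.10) medians lie on opposite sides of the 0.12 for all genes.

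The gate cells held part of the genes of follicle mesenchyme. The dermal sheath list, which contains all genes of the rule but Pdgfra and the exclusion genes, had 13 of 15 genes at 50 CPM, 11 of them higher and 2 lower, Rspo3 among them, and 8 of 10 higher without Acta2, Lrrc15 and Col11a1. Apart from those selecting or marker genes it adds mainly contractile genes, so its count repeats the contractile list. Of 15 dermal papilla genes, 2 were higher and 6 lower, beside 8.18% higher and 12.6% lower among all genes, so that the number of higher ones is close to the background. Sox18, a transcription factor of papilla and vessels (109 CPM against 15.8 CPM), and Alx4 (84.4 CPM against 23.3 CPM) were the higher ones, and Alpl, alkaline phosphatase (9.04 CPM against 55.0 CPM), and Crabp1, a retinoid carrier (20.2 CPM against 98.4 CPM), were among the lower ones, though the log2 ratio of Crabp1, -2.23, was -1.01 under the looser gate. Wif1, a secreted Wnt inhibitor, was found in 81.1% of gate cells and 20% of other fibroblasts, but its CPM differed less, at 333 against 188. With every cell thinned to 1000 UMIs the shares for Wif1 were 26.1% in gate cells, 8.80% in other fibroblasts and 2.95% in keratinocytes.

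Compared with 648 other fibroblasts with a UMI of at least 2 of the genes Wif1, Hhip and Rspo3, of 4190 genes 285 (6.8%) were at least 2-fold higher in gate cells and 408 (9.74%) at least 2-fold lower. This class was shallower, with a median of 7714 UMIs. Thbs4, a thrombospondin of tendon and muscle, had the second highest ratio after Ednrb (233 CPM against 7.48 CPM, log2 ratio 4.78), and Acta2, Kank4, Actg2, Stmn2, Tnnt1, Tagln, Matn4 and Clic5 followed. Lowest were Slc5a7, a choline transporter (0.603 CPM against 94.4 CPM), Rspo3 and Rspo2, which enhance Wnt signaling (Rspo3 at 13.7 CPM against 781 CPM), Gldn, gliomedin (16.1 CPM against 774 CPM), Gdf10, a BMP family member (4.22 CPM against 205 CPM), and Gm14226, Scube1, Slc26a7, Fut9 and Unc5c. Wif1, Hhip and Rspo3 were lower by the way the class was selected. Within the gate, 65 cells held none of the genes Wif1, Hhip and Rspo3, 293 held 1, 71 held 2 and 16 held all of them.

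Cycling genes were higher in gate cells. Of 8 cell cycle genes at 50 CPM, 7 were at least 2-fold higher and none lower (median log2 ratio 1.99), beside 8.18% higher among all genes. Most of the higher ones, Birc5 among them, reached 50 CPM in gate cells only, which fixes their direction. Top2a, a topoisomerase of dividing cells, was at 232 CPM against 50.5 CPM and Birc5, survivin, at 74.9 CPM against 12.0 CPM. A UMI of at least 3 of 9 cycling genes was found in 27.6% of gate cells (23.5% to 32.0%), 3.84% of other fibroblasts, 5.56% of the Wif1, Hhip and Rspo3 class and 48.8% of keratinocytes. After thinning to 3000 UMIs, which left out 4 gate cells and 276 other fibroblasts, the shares were 17.0%, 2.37%, 3.39% and 30.4%. Free RNA of cycling cells was not separated from transcripts of the cells themselves.

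When all kept Ctrl cells were clustered without the 7 genes of the rule, the gate cells did not stay in 1 cluster. Of 33 clusters, one of 235 cells held 200 gate cells, which were 85.1% of it, and was led by Acan, Tnnt1, Ednrb, Kank4, Casq2, Fbn2, Col12a1 and Stmn2 besides Col11a1 and Lrrc15. Another, of 574 cells led by Tnn, Egfl6 and Adamts18, held 156 gate cells, 27.2% of it, together with 237 cells that had Lrrc15 or Col11a1 but fewer than 2 UMIs of Acta2. The last of these, of 84 cells led by cell division genes such as Pimreg, Plk1 and H3c3, held 53 gate cells, 63.1% of it. The cluster with 56.3% of the Wif1, Hhip and Rspo3 class held 3 gate cells, and the one with 163 of the 168 mural cells held 1. That follicle class also had 70 cells (10.8%) in the cluster of 574 cells. A cluster of 300 cells held 112 cells of the class and 10 gate cells.

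Sub-clusters of the gate cells, 7 in number and defined on the same cells, are described by their leading genes. Sub-cluster 6 was the largest with 109 cells and held the highest levels of Ednrb (1556 CPM), Acta2 (2735 CPM), Col11a1 (3440 CPM) and Col1a1 (29375 CPM), led by Matn4, a matrilin, Casq2, a calcium store protein of muscle, Slitrk6, Cpxm2 and Col6a6. Sub-cluster 5 (59 cells) held Ednrb at 73.2 CPM and Acta2 at 848 CPM and was led by Smoc1, the Wnt target Apcdd1, the pigment signal a (agouti), Tcf7 and Lrrn1. Sub-cluster 4 (65 cells) held Ednrb at 214 CPM and the highest levels of Wif1 (797 CPM), Hhip (241 CPM), Corin, a papilla protease (319 CPM), and Stmn2 (682 CPM), led by Gm14226, Prss35, Mc5r, Prokr2 and Chodl. Gm14226 was found in 6.15% of its cells and Mc5r in 18.5%, but Chodl in 53.8%. Ednrb thus differed widely between these sub-clusters, whereas Acan stayed between 320 and 504 CPM in them.

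Sub-clusters 2 and 3 carried genes of DNA replication and division. Sub-cluster 3 (44 cells) was led by the histone genes H2ac4, H3c3, H2bc15 and H2ac8 and by Nusap1, a spindle protein, with Mki67 at 1142 CPM and Top2a at 1416 CPM, and held Ednrb at 440 CPM. Sub-cluster 2 (68 cells) was led by the globin genes Hbb-bt, Hba-a2, Hbb-bs and Hba-a1 and by the replication factor Cdc6. The globins were found in 2.94% to 16.2% of its cells, so that a few cells carried them, whereas the replication helicase genes Mcm3, Mcm5 and Mcm2 were found in 58.8% to 66.2%. Its erythroid list summed to 1344 CPM, against 19.5 to 151 CPM in the other sub-clusters.

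Sub-clusters 0 and 1 were led by genes of other fibroblasts and of keratinocytes. Sub-cluster 0 (55 cells) was led by Mmp3, a matrix protease, Des, Slfn5, Cxcl13 and Adam23, and held Dcn at 7184 CPM, the chemokine list at 2133 CPM against 127 to 252 CPM elsewhere, and Myh11 at 239 CPM against 7.30 CPM in the rest of the gate. Slfn5 was found in 72.7% of its cells and Mmp3 in 49.1%, but Des in 3.64% and Myh11 in 9.09%, so that a few cells carried the last pair. Sub-cluster 1 (45 cells) was led by Krt14 (701 CPM), Apoc1, Stfa3, Fa2h and Ly6d, and its keratinocyte list summed to 4144 CPM against 159 to 205 CPM in the other sub-clusters, with a UMI of Krt14 in 37.8% of its cells. All 17 gate cells called doublets by Scrublet, 3.82% of the gate beside 3.23% of other fibroblasts, were in these sub-clusters, 10 in sub-cluster 0 and 7 in sub-cluster 1. Without sub-clusters 0 and 1, 345 gate cells remained, and Pi16 was lower still, at a log2 ratio of -6.05. That shift follows from a grouping made on the same values. The part of doublets in sub-clusters 0 and 1 was not tested beyond these calls.

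**Figure D5:**
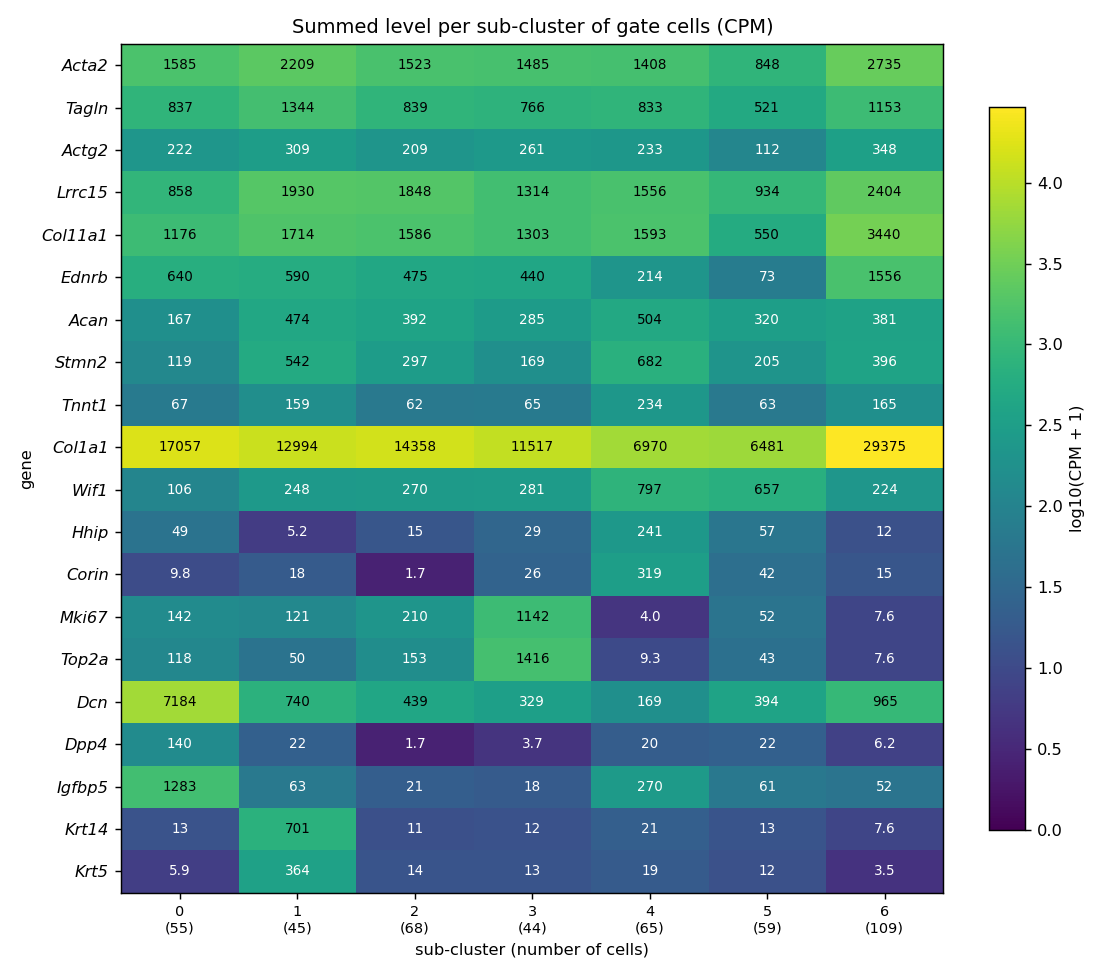
CPM of 20 genes (rows) in the 7 sub-clusters of gate cells (columns, with the number of cells), with color on a log10 scale. Ednrb ranges from 73.2 CPM in sub-cluster 5 to 1556 CPM in sub-cluster 6, Mki67 and Top2a stand out in sub-cluster 3, Dcn in sub-cluster 0 and Krt14 in sub-cluster 1.

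In MC903 skin the gate found 11 of 8179 kept cells, 0.134% (0.0672% to 0.241%), and 0.229% of 4811 Pdgfra-positive cells, against 8.49% in Ctrl. The 11 cells held 2 to 9 UMIs of Acta2 and 2 to 7 of Lrrc15 plus Col11a1, close to the thresholds, with a median depth of 7170 UMIs. Ednrb was found in 10 of them, at 38, 21, 10, 5, 4, 3, 2, 2, 1 and 1 UMIs, or 87 UMIs in all, which is 1035 CPM. Tagln was found in 6 of them, Acan in 2, with 9 UMIs, and Stmn2 in 1. After thinning to 3000 UMIs, 1 of 6571 MC903 cells passed, against 189 of 9585 in Ctrl.

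Pooled over all Pdgfra-positive cells, the selecting genes and markers were lower in MC903, which mostly restates the count, since the gate cells held 83.1% of the Acta2 UMIs and 89.7% of the Ednrb UMIs of these cells in Ctrl. Acta2 was at 273 CPM in Ctrl and 6.58 CPM in MC903, and Ednrb at 95.2 CPM and 35.02 CPM. Outside the gate, the levels of Ctrl and MC903 were 52.7 and 5.39 CPM for Acta2, 76.6 and 2.47 CPM for Lrrc15, 86.0 and 10.7 CPM for Col11a1 and 45.6 and 5.14 CPM for Tagln. Acan was at 8.29 and 0.831 CPM there and Stmn2 at 14.5 and 0.643 CPM. Ednrb went the other way outside the gate, at 11.2 CPM with a UMI in 4.21% of cells in Ctrl and 32.8 CPM with a UMI in 5.94% in MC903. With cells thinned to 1000 UMIs, 0.695% of 4750 such cells in Ctrl and 2.75% of 4657 in MC903 held a UMI of Ednrb, beside 0.632% of keratinocytes in Ctrl and 0.392% of 255 keratinocytes in MC903, so that the share was near the background in Ctrl alone. The median depth of all Pdgfra-positive cells was 9047.5 UMIs in Ctrl and 6883 in MC903.

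Other follicle cells and keratinocytes moved with the count. The class with at least 2 of Wif1, Hhip and Rspo3 held 648 cells in Ctrl (5.68%) and 127 in MC903 (1.55%). Cells without Pdgfra and with at least 10 UMIs of 6 keratins of hair matrix, cortex and inner root sheath (Krt25, Krt27, Krt28, Krt71, Krt73 and Krt35, chosen after their values were seen) numbered 258 in Ctrl (2.26%) and 0 of 8179 in MC903, which allows a share of up to 0.0367%, taken as 3 counts. Keratinocytes with at least 2 UMIs of Krt5 and of Krt14, a gate that is not limited to the follicle, made up 8.33% of kept cells in Ctrl and 3.19% in MC903. Mural cells made up 1.47% and 1.00%. With 1 library per condition, the treatment, the state of the hair follicles in the sampled skin, the yield of cells and the library cannot be told apart.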

How the data were processed

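Dorsal skin was profiled by 10x 3′ single-cell RNA-seq in 1 Ctrl and 1 MC903 library. The authors deposited UMI counts per gene and barcode, not normalized, for 33904 genes on mm10. The version of Cell Ranger is given as 5.0.0 in the matrices, 6.0.0 in the design text and 3.1.0 in the submitters' processing notes, and that of Seurat as 4.3.0 and 5.0. The authors' cell annotation was not used here. The deposited barcodes numbered 12598 in Ctrl and 8778 in MC903.

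The filter kept barcodes between 200 and 6000 genes whose UMIs were at most 10% mitochondrial (13 genes). UMIs were summed over a class and scaled to CPM, and log2 ratios were taken with 1 CPM added, over genes with at least 50 CPM in either class, with 2-fold as the call. Keratinocytes had at least 2 UMIs of Krt5 and of Krt14, and T cells at least 1 of Cd3e and Ptprc, without Pdgfra. Shares were also taken after 1 random draw of 1000 UMIs per cell and gates after a draw of 3000 (seed 0), with shallower cells left out. Clusters were made with scanpy 1.11.5 (Leiden, resolution 1 for all cells and 0.5 for gate cells, 2000 variable genes) on Python 3.11.15. Doublets were called with Scrublet and kept. It called 395 of 11399 Ctrl cells (3.47%) and none in MC903, where it did not work. The ratios were checked on simulated data. Intervals and the limit that a count of 0 allows (3 counts) cover counting error only.

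The members and the gene lists were chosen with earlier results of these data known. Named genes are those of the rule, in each list the gene with the highest CPM, the highest and the lowest ratio, the 20 highest and 15 lowest ratios, the 5 leading genes of a sub-cluster, and the 10 highest and 10 lowest against the mural class and the Wif1, Hhip and Rspo3 class. Some genes were named outside this rule, after their values were seen (Myh11, Myl9, Tpm1, Tpm2, Lmod1, Cnn2, Vcl, Higd1b, Notch3, Col3a1, Col7a1, Col27a1, Col14a1, Col16a1, Dcn, Ogn, Prelp, Aspn, Ccn4, Fn1, Fap, Postn, Cthrc1, Ednra, Gli2, Edn1, Edn3, Dkk1, Ccl2, Cxcl1, Alx4, Alpl, Corin, Mki67, Mcm2, Mcm3, Mcm5 and the leading genes of clusters of all cells). Of the identifiers, 32475 are in GENCODE release 21.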

Additional observations from a re-analysis of the deposited data

How the results depend on the processing

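No paired analysis was possible because each condition has 1 library. The count of 445 gate cells in Ctrl lay between 345 and 625 under 8 of 9 alternatives, and was 189 with cells thinned to 3000 UMIs. The 11 gate cells of MC903 became 30 with at least 1 UMI of Acta2 and of Lrrc15 plus Col11a1, 7 with at least 3 of each, 7 with both Lrrc15 and Col11a1 required, and 1 after thinning. The 330 higher and 507 lower genes became 998 and 1844 without a CPM minimum and 186 and 316 with at least 100 CPM, which test more and fewer genes, and stayed within 1.5 times under 10 other alternatives, one of them (sub-clusters 0 and 1 left out) chosen after seeing the data. Scaling by the median of gene ratios moved the median log2 ratio from 0.12 to -0.02 and the counts to 239 and 564. At resolution 1.0 the gate cells formed 11 sub-clusters in place of 7. Alternatives were run for the ratios of 106 named genes, not for genes named outside the rule such as Ccl2 and Col27a1. Of the 82 among these 106 that were past 2-fold, none reversed and 15 fell under 2-fold in at least 1 alternative. Without sub-clusters 0 and 1, which were made from these same values, 20 of them moved by more than 1 log2 unit. All were lower in gate cells and moved farther from 0, the most in Sfrp4 (-3.10 to -6.70). With 10 CPM added 15 moved by as much toward 0. Ednrb stayed between 5.002 and 6.17, Acan between 4.33 and 5.49 and Tnnt1 between 3.37 and 5.31, all lowest with other Pdgfra-positive cells included or 10 CPM added. Hhip was at -0.38 and Gm14226 at -0.66 under the looser gate, against -1.38 and -2.69. Doublets could not be left out in MC903.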
